A study of Homo sapiens with 8 samples.

Results

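Cytosolic ribosomal protein genes were taken as one set of promoters in LX-2 cells, an immortalised human hepatic stellate cell line with fibroblast features. The set held every protein-coding gene of the hg19 annotation whose symbol was RPL or RPS followed by a number and at most 1 letter, which left out the ribosomal protein S6 kinases. The rule found 77 of 20176 protein-coding genes, 46 for the large subunit and 31 for the small subunit, on 21 chromosomes, with 12 genes on chromosome 19. Wild-type cells were grown on fibronectin-coated polyacrylamide gels of about 2 kPa (soft) or 40 kPa (stiff) for 2 or 4 days (D2 or D4), and accessible chromatin was profiled by ATAC-seq, in which a transposase cuts and tags open DNA. The 4 groups had 2 libraries apiece (D2 soft and D2 stiff, D4 soft and D4 stiff), and each library had its own list of peaks. The cell line, the fibronectin coating and the use of polyacrylamide were shared by every group. The acrylamide and crosslinker contents of the gels differed between soft and stiff. The question addressed by the design was how a stiff matrix changes the accessibility of stellate cell chromatin, and the values below give the position of the ribosomal protein promoters within it.

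Ribosomal proteins assemble on ribosomal RNA into the large and small subunits, and growing cells transcribe their genes at high and coordinated rates. Transcription of most of these genes starts at a cytosine inside an uninterrupted stretch of pyrimidines (C or T), and the resulting oligopyrimidine tract at the 5′ end of the mRNA places its translation under mTOR and LARP1. Their promoters are usually short, rich in CpG, without a canonical TATA box, and open in nearly every cell type.

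The peak lists held between 29789 and 72840 peaks. A stand-in for depth, the fragments per kb at the genome-wide background that each list's own values imply, ran from 0.780 in D2 soft replicate 1, also the shortest list, to 3.15 in D4 stiff replicate 1. Reads were not used here, and comparisons between libraries therefore rest on the rank of a peak within its own list, given as a percentile from 0 to 100 with 100 the strongest. D2 soft replicate 1 stood apart in length and depth, and the counts of members and the fitted differences over all members at day 2 are given with and without it. For the cell type, promoter peaks stood at ACTA2, COL1A1, PDGFRB and VIM in all 8 lists and at COL1A2 in 7, but at COL3A1 in 2, LRAT in 1 and DES in none. No list had a peak at the hepatocyte genes ALB and APOA1, the endothelial gene VWF, the leukocyte gene PTPRC or the epithelial gene KRT19, whereas CD14 had one in 8 lists, EPCAM in 6, CDH5 in 4 and TTR in 2.

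The sequence around the annotated start is shown for the 4 members with the highest and the 5 with the lowest mean peak rank and for 2 members without a peak, because the pyrimidine tract at the start is what most members share beyond their names. Each line gives 15 bases before the start of the canonical transcript and 15 bases from it, on the gene's strand of GRCh37 (the assembly behind hg19), and the capitals mark the longest run of C and T that reaches within 5 bases of the start. The members with the highest ranks were RPL37 at chr5:40835310-40835339 (minus strand), RPS29 at chr14:50053084-50053113 (minus strand), RPL27 at chr17:41150421-41150450 (plus strand), RPL18 at chr19:49122421-49122450 (minus strand).
RPL37: tagcggaagtgCCTTCTCTTCCggtctttc
RPS29: tgcgtgggccagCTTCTTCCTTTTacctcg
RPL27: ccggggtgaaaggTTagcggaagtgtcctt
RPL18: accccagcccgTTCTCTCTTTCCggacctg
The members with the lowest ranks among those found in every list were RPL7A at chr9:136215058-136215087 (plus strand), RPS7 at chr2:3622835-3622864 (plus strand), RPL17 at chr18:47018821-47018850 (minus strand), RPL41 at chr12:56510402-56510431 (plus strand), RPL37A at chr2:217363552-217363581 (plus strand).
RPL7A: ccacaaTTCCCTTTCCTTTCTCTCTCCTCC
RPS7: gtttccgCCCTCCTCCTCgcgctgtttccg
RPL17: CCTCTTTCCCTaagcagcctgaggtgagtg
RPL41: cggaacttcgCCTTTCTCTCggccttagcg
RPL37A: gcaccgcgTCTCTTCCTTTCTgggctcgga
The members shown without a peak in any list were RPL10L at chr14:47120970-47120999 (minus strand), RPL3L at chr16:2004676-2004705 (minus strand).
RPL10L: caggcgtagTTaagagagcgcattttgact
RPL3L: agtcctggCCCTgccactcgacctctggcg

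Most of the members shown carried a long run, with lengths of 11 bases in RPL37, 12 in RPS29, 16 in RPL17 and 25 in RPL7A. The runs of RPL17 and RPL7A go on beyond the bases shown. RPL27 had a run of 2 bases at the annotated start, and the muscle paralog RPL3L and the testis paralog RPL10L had runs of 4 and 2. Over all 77 members the annotated first base was C in 58 (75.3%), against 10.7% of 19874 protein-coding genes and 11.5% of 78 genes for mitochondrial ribosomal proteins, which belong to another ribosome. A run of at least 8 bases was found in 59 members (76.6%), against 11.0% of all genes and 6.41% of the mitochondrial set. The median run was 11 bases in the members and 3 in both other sets. Of the 59 members with such a run, 48 (81.4%) had a peak in every list, and of the 18 without it, RPL10L and RPL3L among them, 12 (66.7%) did. By strength the order was the other way, with a median −log10 p percentile over the members found in every list of 73.2 with such a run and 84.3 without.

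The 250 bases before the start are shown for 5 members whose upstream window overlaps no annotated exon. RPL37 is shown as the member with the highest mean rank, RPL10A, RPL29 and RPL19 for the motifs they hold and because their peak was missing from a list, and the testis paralog RPL10L as a promoter without a peak. The positions were chr5:40835325-40835574 (minus strand) for RPL37, chr6:35435928-35436177 (plus strand) for RPL10A, chr3:52029912-52030161 (minus strand) for RPL29, chr17:37356286-37356535 (plus strand) for RPL19, chr14:47120985-47121234 (minus strand) for RPL10L in GRCh37. Capitals mark exact matches, on either strand, to CCGGAAG (the core bound by ETS factors such as GABPA), AANATGGCG (YY1), GCGCATGCG (NRF1), CTCGCGAG, GGAATG (TEAD), TATAAA and the AP-1 heptamer TGACTCA with its reverse complement.
RPL37: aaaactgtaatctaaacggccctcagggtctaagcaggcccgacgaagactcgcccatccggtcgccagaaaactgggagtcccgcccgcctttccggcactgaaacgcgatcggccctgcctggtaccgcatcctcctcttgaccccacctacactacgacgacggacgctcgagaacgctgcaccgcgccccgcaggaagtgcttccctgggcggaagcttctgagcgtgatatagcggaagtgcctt
RPL10A: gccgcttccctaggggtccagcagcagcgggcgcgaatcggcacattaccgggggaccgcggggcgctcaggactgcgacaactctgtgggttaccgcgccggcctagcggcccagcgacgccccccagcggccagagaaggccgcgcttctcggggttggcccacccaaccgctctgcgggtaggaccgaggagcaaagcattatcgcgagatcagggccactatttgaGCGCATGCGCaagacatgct
RPL29: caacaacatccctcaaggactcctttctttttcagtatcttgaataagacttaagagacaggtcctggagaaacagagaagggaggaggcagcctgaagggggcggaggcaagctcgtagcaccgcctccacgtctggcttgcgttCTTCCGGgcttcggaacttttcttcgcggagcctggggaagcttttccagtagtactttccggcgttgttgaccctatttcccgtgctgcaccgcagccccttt
RPL19: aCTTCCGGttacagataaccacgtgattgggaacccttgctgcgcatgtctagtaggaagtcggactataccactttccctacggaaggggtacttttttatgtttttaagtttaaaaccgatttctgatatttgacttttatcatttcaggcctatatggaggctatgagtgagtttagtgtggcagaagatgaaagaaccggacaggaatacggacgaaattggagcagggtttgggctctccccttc
RPL10L: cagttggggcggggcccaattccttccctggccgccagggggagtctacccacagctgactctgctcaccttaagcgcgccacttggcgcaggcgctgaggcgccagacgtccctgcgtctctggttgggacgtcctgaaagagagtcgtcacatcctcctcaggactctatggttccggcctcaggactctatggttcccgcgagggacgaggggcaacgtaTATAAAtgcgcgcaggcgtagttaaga
RPL37 held none of these motifs in the 250 bases shown, although the ETS core lies on its other strand just after the start, in the start sequence above. In RPL10A the NRF1 letters matched both strands at overlapping places that began 20 and 19 bases before the start. In these windows the ETS core began 104 bases before the start of RPL29 and 249 bases before that of RPL19. RPL10L had TATAAA 27 bases before its start, the usual place of a TATA box.

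Across the promoters from 250 bases before to 50 bases after the start, the ETS core was present in 27 of 77 members (35.1%), against 14.1% of all promoters and 41% of those of the mitochondrial ribosomal proteins. The YY1 letters were found in 11 members (14.3%), against 5.01% of all promoters and 23.1% of the mitochondrial set. CTCGCGAG was found in 7 members (9.09%), against 1.46% of all promoters and 2.56% of the mitochondrial set. The GC box GGGCGG was as frequent in the members (62.3%) as in all promoters (61.4%), and CCAAT (29.9% against 36.0%) and TATAAA (7.79% against 9.63%) were less frequent by count. AP-1, the factor family named in the title of the study, had its heptamer in 1 member promoter (1.30%; RPL24) against 3.56% of all promoters, and GGAATG was found in 5 (6.49% against 11.3%). Motifs were counted independently of any overlap, and a match describes letters only. The median GC content of the member promoters was 60%, against 63.7% over all promoters.

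Most ribosomal protein promoters were open in every library. Of the 77 members, 74 had a peak with a base within 1 kb of an annotated transcription start in at least 1 list and 60 (77.9%) had one in all 8 lists, against 9583 (47.5%) of all protein-coding genes and 65 of 78 (83.3%) of the mitochondrial ribosomal protein genes. Both subunits were represented, with 35 of 46 large subunit genes (76.1%) and 25 of 31 small subunit genes (80.7%) found throughout. In D2 soft, 61 members had a peak in replicate 1 and 74 in replicate 2, and in D2 stiff 72 and 74 did. In D4 soft the counts were 72 and 73, and in D4 stiff 74 in each replicate. The low count thus came from a single list, the shortest one, in which 79.2% of the members and 48.9% of all genes had a peak. In the other 7 lists the members ranged from 93.5% to 96.1% and all genes from 63.5% to 69.1%. Without D2 soft replicate 1, 70 members had a peak in every remaining list.

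Of the 17 members that lacked a peak somewhere, 10 lacked it only in D2 soft replicate 1. Among these were RPL29, RPL10A, RPL12, RPS2, RPL13, RPL23, RPL19, RPL38 and RPS15, from both subunits. RPL8 lacked a peak in D2 soft replicate 1 and D2 stiff replicate 1, RPS27 in D2 soft replicate 1 and D4 soft replicate 1, and RPL14 in both of those D2 lists and D4 soft replicate 1. RPS4X, the X-linked member of a gene pair whose partner lies on the Y chromosome, lacked a peak only in D4 soft replicate 2. The listed peaks of RPS27, RPS4X and RPL19 were weak. The −log10 p percentile of RPS27 was 17.1, 20.1, 23.6, 23.4, 14, 38.4 in the 6 lists that held it, in the order D2 soft, D2 stiff, D4 soft, D4 stiff. In the same order it was 8.38, 11.6, 35.5, 14.6, 45.3, 33.5, 18.4 in 7 lists for RPS4X, and in 7 lists for RPL19, a large subunit protein, 7.13, 9.76, 15.4, 44.2, 10.9, 28.6, 29.1. All of these stayed in the lower part of their lists. At day 2 the listed soft values of all 3 genes lay below the stiff values, with a single soft list for RPS27 and RPL19. At day 4 the groups overlapped for RPS27 and RPL19, and the only listed soft value of RPS4X lay above both stiff values.

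RPL10L and RPL3L, paralogs used mainly in testis and in striated muscle, were among the 3 members without a peak in any list.

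**Figure D1:**
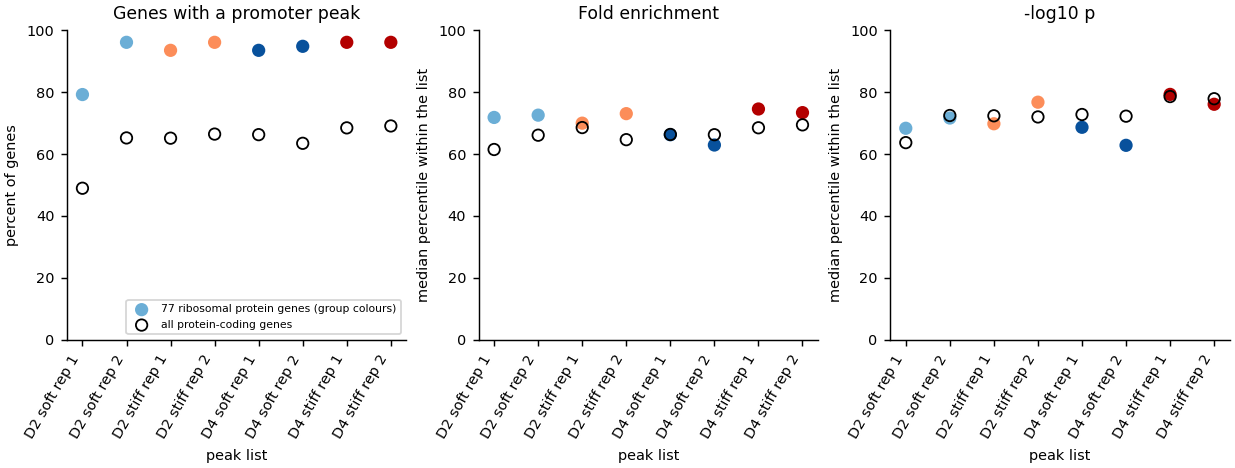
Percent of genes with a promoter peak, and median within-list percentile of fold enrichment and of −log10 p over those with a peak, in each of 8 lists, for 77 ribosomal protein genes (filled, coloured by group) and all protein-coding genes (open). The first panel shows 79.2% of members in D2 soft replicate 1 and 93.5% to 96.1% in the other lists, above the 48.9% to 69.1% of all genes.

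The strength of the member peaks lay near that of other promoters. The peak caller's fold enrichment over local background had a median percentile over the members of 71.8 and 72.6 for the D2 soft libraries, 70.0 and 73.1 for the D2 stiff libraries, 66.2 and 62.9 for the D4 soft libraries, and 74.6 and 73.4 for the D4 stiff libraries. Over all genes with a promoter peak the medians were 61.5 and 66.1 for the D2 soft libraries, 68.6 and 64.6 for the D2 stiff libraries, 66.3 and 66.2 for the D4 soft libraries, and 68.5 and 69.4 for the D4 stiff libraries. The members were above the genes in 6 lists and below them in both D4 soft lists.
Ranked by −log10 p, which grows with depth as well as with enrichment, the members had median percentiles of 68.3 and 71.6 for the D2 soft libraries, 69.8 and 76.8 for the D2 stiff libraries, 68.6 and 62.8 for the D4 soft libraries, and 79.3 and 76.1 for the D4 stiff libraries. All genes had medians from 63.7 to 78.6, above the members in 5 of the 8 lists.

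The 60 members with a peak in every list were compared with the 9583 genes that also had one, since the composition of that set did not change between lists. Their median fold enrichment was 8.92 ± 1.87 (soft) and 10.2 ± 0.993 (stiff) at day 2, and 8.83 ± 0.705 (soft) and 10.7 ± 0.0986 (stiff) at day 4 (mean ± SD of the list medians, n = 2). In the same order the median percentiles were 74.5 ± 3.67, 75.2 ± 4.19, 70.5 ± 2.74 and 77.7 ± 1.38. Over the 9583 shared genes the fold enrichment means were 8.43, 10.2, 9.23 and 10.7 in that order. Their percentiles were 68.6, 75.1, 74.3 and 77.6, so fold enrichment was also higher in stiff over all shared genes on each day. Among the shared genes the members ranked mostly below the middle by −log10 p, with median percentiles of 55.5 and 44.6 for the D2 soft libraries, 39.9 and 49.5 for the D2 stiff libraries, 34.2 and 31.6 for the D4 soft libraries, and 45.3 and 39.0 for the D4 stiff libraries. Only D2 soft replicate 1 put them above the middle. By fold enrichment their median rank among shared genes lay between 41.6 and 60.7. A mean −log10 p rank above 90 was found for 4 members (6.67%), against 7.43% of all shared genes, and one below 10 for 2 members (3.33%), against 5.32%.

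**Figure D2:**
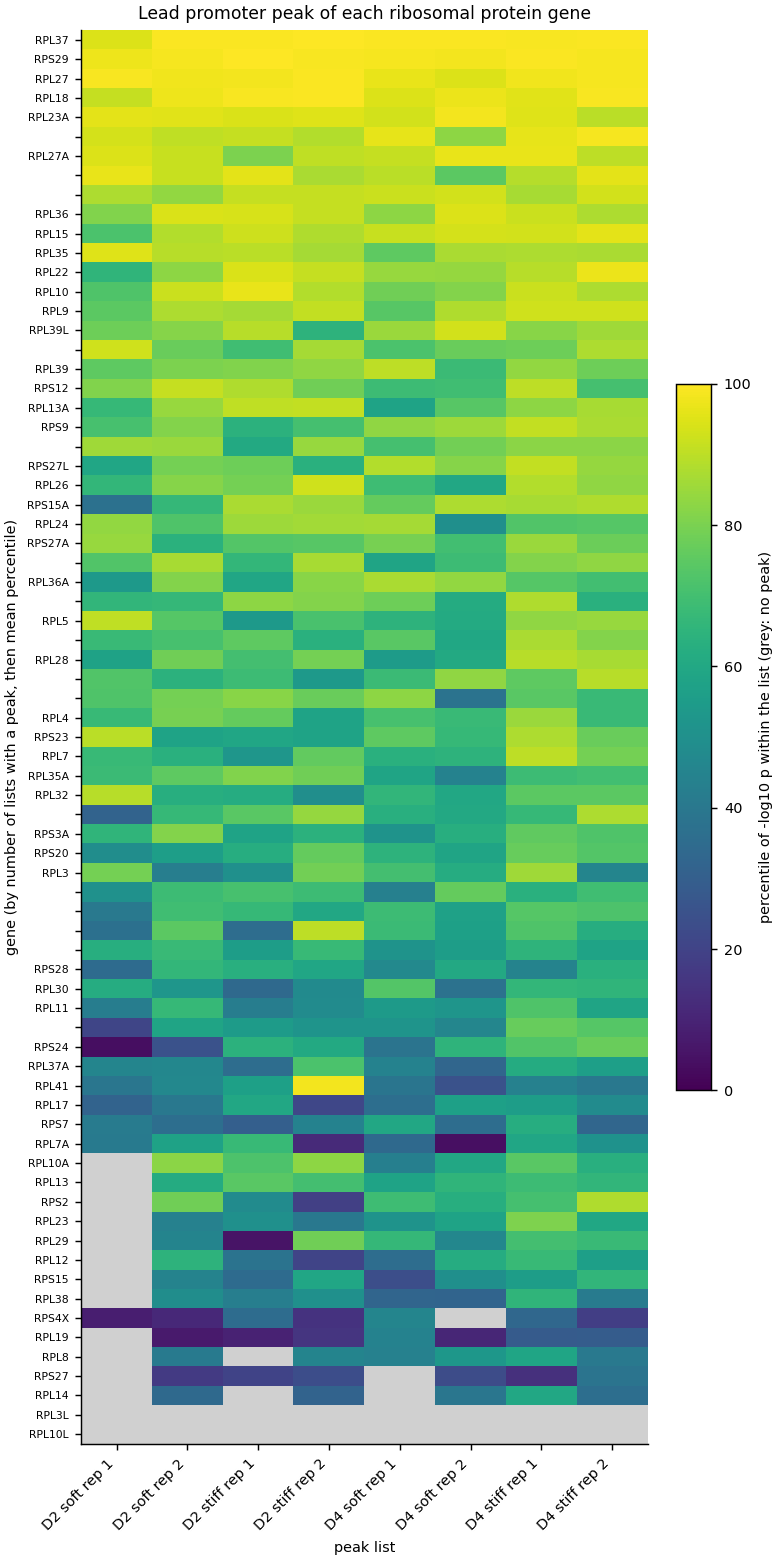
Percentile of −log10 p within the list for the lead promoter peak of 73 ribosomal protein genes (a line per gene, named where the text names them) in 8 lists (columns), with grey where no peak was listed. RPL37 and RPS29 stay near the top in every list, grey cells gather in D2 soft replicate 1, and RPL10L and RPL3L are grey throughout.

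A few members held the top of every list. RPL37, a zinc-binding protein of the large subunit, had −log10 p percentiles of 94.7 and 99.5 in the D2 soft lists, 99.5 and 99.8 in the D2 stiff lists, 99.4 and 99.5 in the D4 soft lists, and 99 and 99.3 in the D4 stiff lists. RPS29, a small zinc-binding protein of the small subunit, had 97.6 and 98.8 in the D2 soft lists, 99.7 and 99.1 in the D2 stiff lists, 98.5 and 98.4 in the D4 soft lists, and 99.6 and 98.8 in the D4 stiff lists. The lowest of these 16 values was the RPL37 peak in D2 soft replicate 1, and the soft and stiff values of RPL37 overlapped at day 2 but not at day 4, where stiff was lower. Both stiff values of RPS29 were above both soft values on each day, and all of them lay between 97.6 and 99.7. RPL27, of the large subunit, followed with 98.9 and 98 in the D2 soft lists, 98.2 and 99.6 in the D2 stiff lists, 96.7 and 94.8 in the D4 soft lists, and 97.8 and 98.6 in the D4 stiff lists. RPL18 had a mean of 96.7. These were also the members whose start sequences are shown first above, and RPL27 among them lacked a long pyrimidine run.

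At the other end were RPL7A, RPS7, RPL17, RPL41 and RPL37A, with mean −log10 p percentiles of 40.8, 43.0, 43.8, 48.6 and 49.3. RPL7A, a large subunit protein, also varied strongly, with fold enrichment percentiles of 37.2 and 53.2 in the D2 soft lists, 60.6 and 6.11 in the D2 stiff lists, 24.9 and 3.85 in the D4 soft lists, and 45.7 and 38.4 in the D4 stiff lists. The lowest values fell in D2 stiff replicate 2 and D4 soft replicate 2. The D2 groups overlapped, and both D4 stiff lists were above both D4 soft lists. Its lead summit lay between −712 and −1113 bp from the canonical start (negative is upstream) in 6 lists and at 41 and 46 bp in the D4 soft lists, and the start of MED22, a Mediator subunit gene, lies within 1 kb. RPL41, the shortest ribosomal protein, had fold enrichment percentiles of 19.3 and 14.3 in the D2 soft lists, 31.3 and 86.8 in the D2 stiff lists, 12 and 5.39 in the D4 soft lists, and 8.01 and 8.98 in the D4 stiff lists. Only D2 stiff replicate 2 was high, and there the summit lay 1492 bp downstream of the canonical start. With summits limited to 1 kb, the stiff minus soft difference of RPL41 at day 2 turned from 1.28 to −0.99 on the normal score scale of the limma fit.

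**Figure D3:**
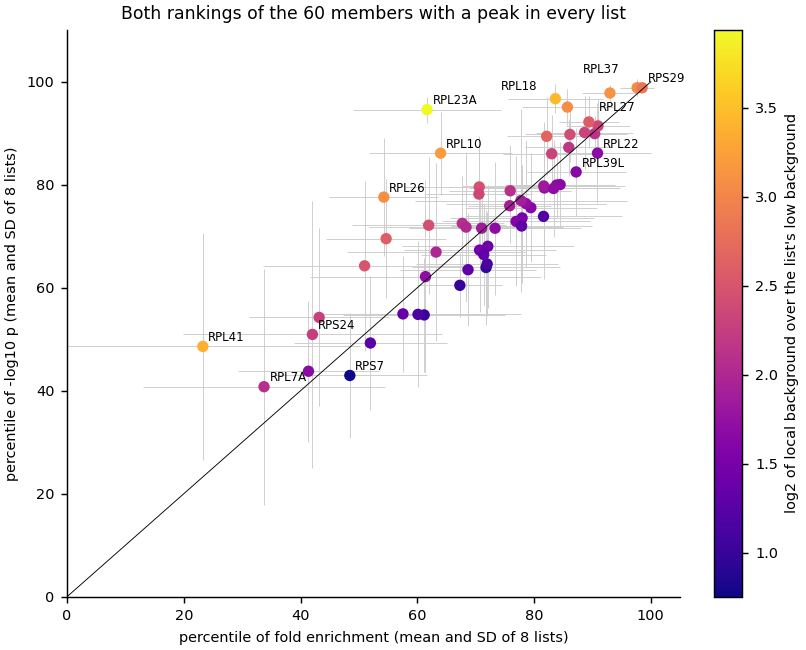
Mean percentile of fold enrichment (x) against mean percentile of −log10 p (y) for each member with a peak in every list, with bars of 1 SD over 8 lists and colour for the log2 of local background over the list's low background. RPL23A sits at 61.7 on x and 94.6 on y with the highest local background.

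Paralogs inside the set differed in presence and rank. RPS27 had a peak in 6 lists with a mean −log10 p percentile of 22.8, whereas its paralog RPS27L had one in all 8 with a mean of 78.2. RPL39 and its paralog RPL39L, best known from testis, both had peaks in every list, with means of 79.9 and 82.5. RPL10 had a mean of 86.1 over 8 lists and its retrogene RPL10L no peak, and RPL3 had 64.3 against no peak for RPL3L. By subunit, the median −log10 p percentile of the listed peaks ran from 62.0 to 82.6 over the 8 lists for the large subunit genes and from 64.1 to 77.3 for the small subunit genes. The large subunit median was the higher in 6 lists and the small subunit median in D4 soft replicate 2 and D4 stiff replicate 2. By fold enrichment the large subunit median was the higher in all D2 lists and the small subunit median in all D4 lists, with 73.0 against 60.5 in D4 soft replicate 1 as the widest gap.

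The rankings by fold enrichment and by −log10 p parted for a group of members with a high local background, which divides the fold. RPL23A, which sits by the exit of the nascent chain, had a mean percentile of 61.7 by fold and 94.6 by −log10 p, and its background was 11.8 to 17.5 times the low background of each list. RPL26 had 54.3 and 77.6, RPL10, which joins the large subunit late in its assembly, 64.0 and 86.1, and RPL18 83.7 and 96.7. Over the 60 members the mean background ran from 1.69 times the low background in RPS7 to 15.3 times in RPL23A.

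Member peaks were moderately wide and sat just upstream of the start. The lead peaks numbered 574 and ran from 186 bp, in RPS27, to 2018 bp, in RPS12. The median width was 577 and 701.5 bp for the D2 soft libraries, 695 and 758.5 for the D2 stiff libraries, 788.5 and 691 for the D4 soft libraries, and 878.5 and 804 for the D4 stiff libraries, against 612 to 958 bp over all genes. Divided by the median width of all peaks of the list, the member median ran from 1.17 in D2 soft replicate 1 to 1.77 in D4 soft replicate 1. RPL10 and RPS27L, a paralog of RPS27 and a p53 target, had the widest peaks on this scale (mean 2.68 each), followed by RPL7 (2.55). RPS24 (0.949), RPL17 (1.03) and RPS20 (1.12) had the narrowest among the members found in every list. The median distance from summit to canonical start was 120.5 bp, 87.3% of the summits lay within 250 bp of a start of the gene, and 483 (84.2%) lay upstream of the canonical start. For 17 members another protein-coding gene starts within 1 kb, among them RPL15 with NKIRAS1, RPL9 with LIAS, RPL18 with SPHK2 and RPL4 with ZWILCH, and the lead peak cannot be assigned to a single gene of such a pair.

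**Figure D4:**
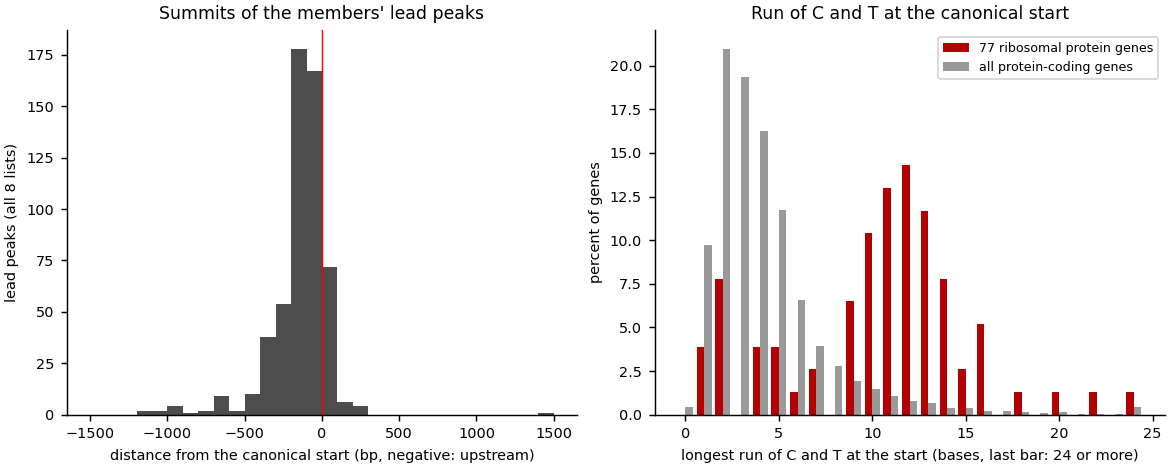
Number of lead peaks by distance of the summit from the canonical start (bp, upstream negative; 552 of 574 within 1500 bp), and percent of genes by length of the C and T run at the start (bases) for members and all protein-coding genes. Most summits lie upstream of the start, and the member runs centre on 11 bases against 3 for all genes.

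Ranks of the members were as variable between libraries as those of other genes, or slightly more so. Among the shared genes, the SD of a member's fold enrichment rank over the 8 lists had a median of 16.2 percentile points, against 14.6 for all 9583 genes and 16.8 for the mitochondrial set. For −log10 p the medians were 14.3, 12.3 and 12.8. On the percentile of −log10 p, RPS29 (SD 0.667), RPL27 (1.49) and RPL37 (1.68) varied least over the lists, and RPS24 (25.9), RPL7A (22.9) and RPL41 (22.0) most.

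Stiff and soft libraries were compared at each day on the fold enrichment ranks among the 9583 shared genes, turned into normal scores and fitted with limma over the 8 libraries. A score difference of 1 is 1 SD of the ranking. At day 2, 0 of the 60 members had an adjusted p under 0.05, against 0% of all genes, and 5 members (4 higher and 1 lower in stiff) had an unadjusted p under 0.05, a share of 8.33% against 7.52% of all genes. At day 4, 0 members were called, again against 0% of all genes, and 3 (2 higher, 1 lower; 5%) passed the unadjusted threshold, against 5.96%. For the mean over both days, 0 members were called, against 0% of all genes, and 4 (6.67%) passed unadjusted, against 7.27%. All 3 shares lie near their backgrounds. The median difference over the members was −0.12 at day 2 and 0.14 at day 4, with 45% and 60% of the members higher in stiff, against −0.02 and 48.3% and 48.5% over all genes. Without D2 soft replicate 2, 53 genes were called at day 2, none of them a member, and 12 members (20%) passed unadjusted (lowest adjusted p = 0.0968, limma), as did 16.9% of all genes. Without D2 soft replicate 1 the day 2 median over the members was −0.01, with 48.6% higher in stiff, against 49.7% of all genes. With a single library left out the day 4 median over the members ran from 0.05 (without D4 stiff replicate 1) to 0.18 (without D4 stiff replicate 2). For the mean over both days the median was −0.07. It ran from −0.10 (without D4 soft replicate 2) to 0.06 (without D4 stiff replicate 2). The p-values measure the spread between 2 libraries a group, and a p that misses the threshold does not show that accessibility was equal.

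**Figure D5:**
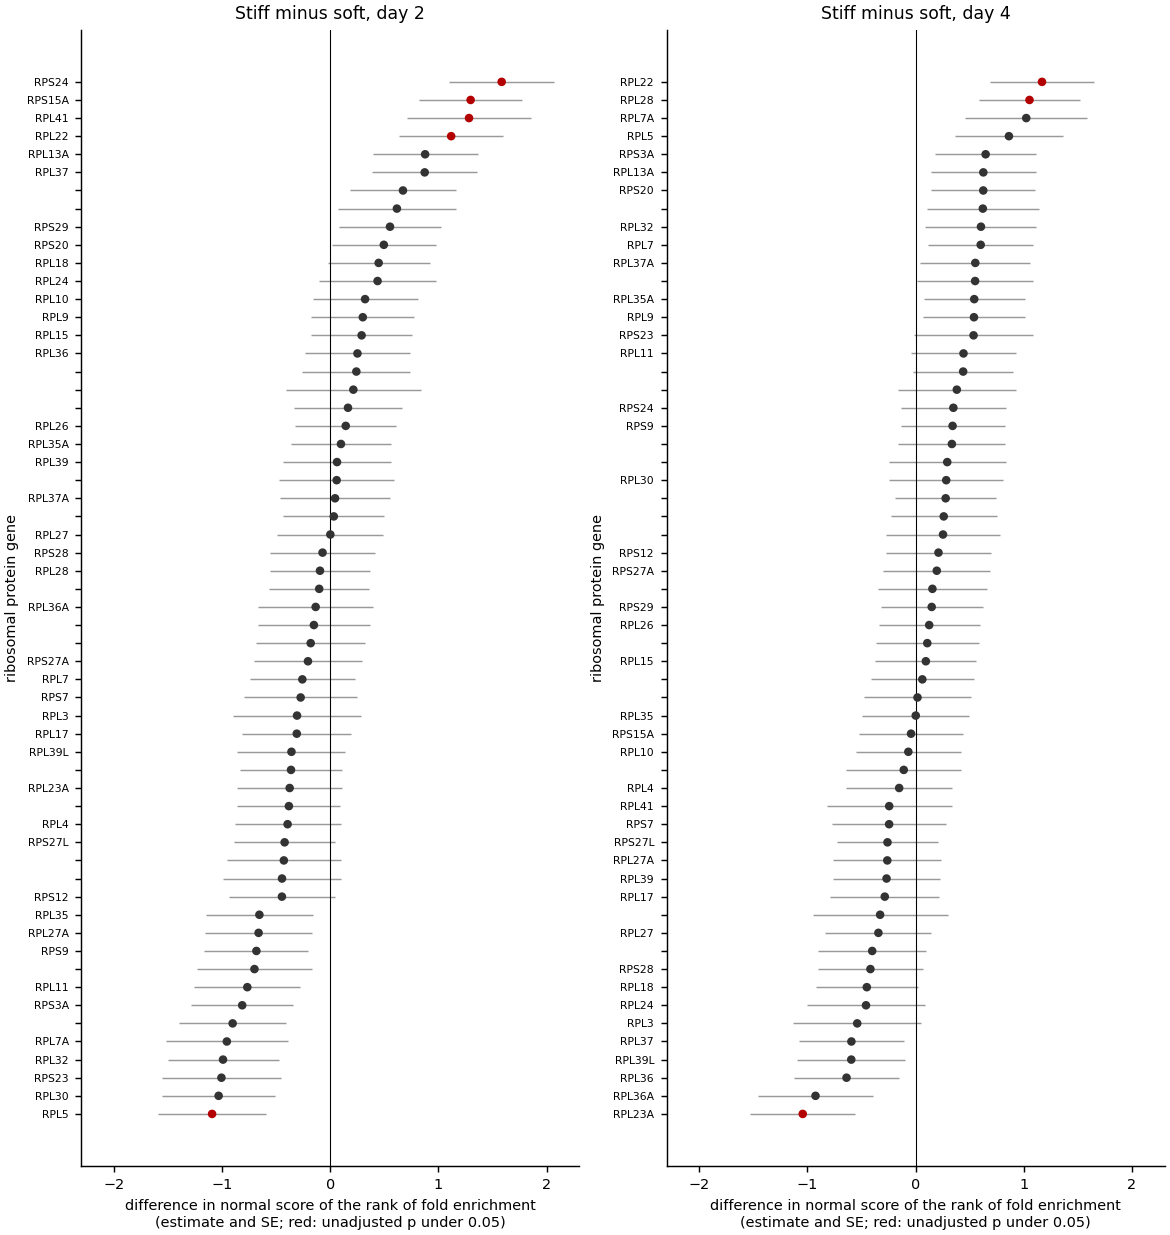
Difference stiff minus soft in normal-scored fold enrichment rank (points, with 1 SE from limma) for 58 members with a peak in every list (named where the text names them), at day 2 and day 4; red marks an unadjusted p under 0.05. RPS24 is highest at day 2 (1.58) and RPL22 at day 4 (1.17), and no member passes the adjusted threshold.

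RPS24, a small subunit protein and a Diamond-Blackfan anemia gene, moved most at day 2. Its fold enrichment percentiles were 3.84 and 17.2 in the D2 soft lists, 63.5 and 47.8 in the D2 stiff lists, 31.2 and 56.9 in the D4 soft lists, and 52.8 and 63 in the D4 stiff lists. Both D2 soft lists were below every other list, and the D2 groups did not overlap, while the D4 groups did. Its difference at day 2 was 1.58 (SE 0.484; limma, adjusted p = 0.450), and over 15 alternatives the adjusted p ran from 0.127 to 0.913. The pileup at its summit was 7 and 15 fragments in D2 soft and 18 and 25 in D2 stiff, so the peak was shallow.

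RPS15A, a small subunit protein, had fold enrichment percentiles of 38.5 and 65.4 in the D2 soft lists, 91.1 and 87.6 in the D2 stiff lists, 75.4 and 91.9 in the D4 soft lists, and 86.1 and 86.1 in the D4 stiff lists. The D2 soft values were both below the D2 stiff values, by 1.30 in score (SE 0.479; limma, adjusted p = 0.564). RPL5, which with RPL11 and 5S RNA can bind MDM2, had 94 and 77.6 in the D2 soft lists, 57.1 and 74.7 in the D2 stiff lists, 67.5 and 68.1 in the D4 soft lists, and 86.4 and 90 in the D4 stiff lists. It was lower in stiff at day 2, by a score of −1.09 (SE 0.5; limma, adjusted p = 0.635), without overlap, and higher in stiff at day 4. Leaving out D2 soft replicate 1 brought the RPL5 difference at day 2 to −0.45. RPL30 and RPS23 had the next most negative differences at day 2, with RPL30 at 67.8 and 61.2 in the D2 soft lists, 34.4 and 48.2 in the D2 stiff lists, 82.2 and 39.2 in the D4 soft lists, and 73.2 and 74.8 in the D4 stiff lists. Its D2 groups did not overlap, and its D4 soft replicates were far apart. RPS23, a protein of the decoding centre, had 93.8 and 60.5 in the D2 soft lists, 60 and 57.9 in the D2 stiff lists, 79.7 and 64.7 in the D4 soft lists, and 92.7 and 77.3 in the D4 stiff lists. The day 2 soft values were above the stiff values by a margin that came mainly from D2 soft replicate 1, and without that library the difference moved from −1.005 to −0.08.

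RPL22, a large subunit protein with a close paralog (RPL22L1), had fold enrichment percentiles of 71.8 and 87.7 in the D2 soft lists, 98.3 and 94.7 in the D2 stiff lists, 91.6 and 86.3 in the D4 soft lists, and 97.1 and 99.5 in the D4 stiff lists. The stiff lists were above the soft lists on each day without overlap. The fold enrichment itself was 7.59 and 11.8 in the D2 soft lists, 15.4 and 14.2 in the D2 stiff lists, 12.4 and 10.4 in the D4 soft lists, and 14.1 and 17.1 in the D4 stiff lists. The score difference was 1.12 at day 2, 1.17 (SE 0.482) at day 4 and 1.14 (SE 0.341) for the mean over both days, and none was called (limma, adjusted p = 0.603, 0.835 and 0.387). The day 4 difference ran from 0.46, with −log10 p ranked, to 1.56, without D4 stiff replicate 1, over 17 alternatives. RPL28, of the large subunit, had 49.9 and 67.4 in the D2 soft lists, 60.5 and 67.6 in the D2 stiff lists, 45.5 and 48.6 in the D4 soft lists, and 82.4 and 73.7 in the D4 stiff lists, with both D4 stiff lists above both D4 soft lists and overlap at day 2. Its difference at day 4 was 1.05 (SE 0.466; limma, adjusted p = 0.835).

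Lower in stiff at day 4 were RPL23A, RPL36A and RPL36. RPL23A had fold enrichment percentiles of 77.1 and 61.9 in the D2 soft lists, 70.1 and 59.2 in the D2 stiff lists, 59.9 and 76.2 in the D4 soft lists, and 47.3 and 41.7 in the D4 stiff lists. The D4 groups did not overlap and the D2 groups did, and the day 4 difference was −1.04 (SE 0.488; limma, adjusted p = 0.835). RPL36A, with the start of BTK, a kinase gene, within 1 kb, had 59.1 and 91.7 in the D2 soft lists, 64.8 and 92 in the D2 stiff lists, 94.1 and 91.1 in the D4 soft lists, and 83.4 and 76.8 in the D4 stiff lists. Here too the D4 groups did not overlap, while each D2 group held a low and a high list. RPL36 had 82.2 and 92.6 in the D2 soft lists, 95 and 91.1 in the D2 stiff lists, 78.3 and 93.7 in the D4 soft lists, and 79.9 and 76.3 in the D4 stiff lists, and its D4 groups overlapped. The lead peak of RPL36, as of RPL27A, was off the canonical start in all lists, and with the peak at the canonical start the RPL36 difference at day 4 was 0.046.

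The change from day 2 to day 4 was compared within each matrix. It shares its libraries with the stiff and soft contrasts. On soft gels 0 members were called, against 0% of all genes, and 8 of 60 (13.3%) passed an unadjusted p under 0.05, 3 higher and 5 lower at day 4, against 7.11%. RPS24 and RPS15A were among the higher, and RPL7A, RPL35A, RPS12, RPS3A and RPL35 were lower, with the lowest adjusted p at 0.593 (limma). The lead summit of RPL7A lay near the canonical start in D4 soft and far upstream in D2 soft. Of the members, 31.7% were higher at day 4, against 48.6% of all genes, and the median difference was −0.26, against −0.02. Both figures varied in size with single libraries, and the median stayed negative. Without D2 soft replicate 1 the median was −0.10 and 41.4% were higher (50.1% of all genes). The median was −0.36 without D4 soft replicate 1, −0.33 without D2 soft replicate 2 and −0.28 without D4 soft replicate 2. How many members passed unadjusted also rose or fell when single libraries were left out. With only the 4 soft libraries fitted, 5 members (8.33%) passed unadjusted, against 5.19% of all genes. Ranked by −log10 p, 11 members (18.3%) passed unadjusted, 2 higher and 9 lower, against 8.21% of all genes, and 20% were higher at day 4, against 50%. On stiff gels 0 members were called, against 0.0313% of all genes (3 genes: BCAR3, NDUFA12 and OXCT2), and 6 members (10%) passed unadjusted, RPS9 higher and RPL41, RPL18, RPL24, RPL36 and RPL13A lower, against 6.07%. RPL41 had the largest difference, −2.34 (limma, adjusted p = 0.278), with the distant summit of D2 stiff replicate 2 among its values. The median difference over the members on stiff gels was −0.09, against −0.02 over all genes. With a single library left out it ran from −0.25 (without D2 stiff replicate 1) to −0.02 (without D2 stiff replicate 2). For the interaction of matrix and day 0 members were called, against 0% of all genes, and 5 (8.33%) passed unadjusted, against 5.71%. RPL7A, RPL5, RPL32 and RPS3A were positive and RPL37 negative, with the lowest adjusted p at 0.859 (limma). For RPL7A the D4 soft summits lay apart from those of the other groups here too. The median interaction over the members was 0.17. With a single library left out it ran from 0.04 (without D4 soft replicate 2) to 0.26 (without D4 soft replicate 1).

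Peak widths were fitted in the same way. At day 2, 0 members were called, against 0% of all genes, and 3 (5%) passed an unadjusted p under 0.05, against 6.02%. At day 4, 0 were called, against 0% of all genes, and 1 (1.67%) passed, against 5.95%. The median width difference over the members at day 2 was 0.08, with 61.7% wider in stiff, against −0.02 and 48.3% over all genes. Leaving out a single library gave medians from 0.004 (without D2 soft replicate 2) to 0.13 (without D2 stiff replicate 1). The median width difference over the members at day 4 was −0.08, against −0.14 over all genes. With a single library left out it ran from −0.22 (without D4 stiff replicate 2) to −0.05 (without D4 stiff replicate 1). RPS28, a small subunit protein, had widths of 295 and 405 in the D2 soft lists, 955 and 820 in the D2 stiff lists, 534 and 667 in the D4 soft lists, and 1103 and 817 in the D4 stiff lists (bp). Its D2 soft peaks were shorter than all others, and the D2 groups did not overlap. The start of NDUFA7 lies within 1 kb, so the peak cannot be assigned to RPS28 alone. The width score differed by 2.48 (SE 0.499; limma, adjusted p = 0.547). RPS27A, made as a ubiquitin fusion, had a negative width difference at day 2 (−1.29) and RPL41 a positive one (0.88), and at day 4 RPL7A had a positive one (1.59; limma, adjusted p = 0.626). The RPL7A value sets D4 soft peaks with summits near the canonical start against D4 stiff peaks with summits far upstream. The RPL41 value at day 2 includes the D2 stiff replicate 2 peak with the distant summit.

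Other genes of the translation machinery were read in the same lists. All 10 ribosomal protein genes whose symbols fall outside the rule, among them RPLP0, RPSA and FAU, had a peak in every list. Of 13 genes for translation factors and other oligopyrimidine mRNAs, 10 had one in every list. EEF2, the elongation factor for translocation, had a peak in 4 lists, and EEF1D and EIF3F lacked one only in D2 soft replicate 1. All 14 ribosome biogenesis genes had a peak in every list, as did 7 of 8 regulators, with YY1 lacking one in D2 soft replicate 1. No gene of these lists was called in any of the 6 contrasts (limma). At an unadjusted p under 0.05, in stiff minus soft at day 2, the counts were 0 of 10, 0 of 10, 3 of 14 and 2 of 7 in the order given, and at day 4 they were 1, 0, 2 and 0. The mitochondrial set had 9 of 65 at day 2 and 3 of 65 at day 4. Over all genes the shares were 7.52% at day 2 and 5.96% at day 4.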

How the data were processed

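Peaks of 8 LX-2 ATAC-seq libraries (2 per group) were analysed. The authors trimmed reads with Trim Galore, mapped them to hg19 with Bowtie2 2.4.1 and called peaks in each library with MACS2 at q up to 0.05. The submitters' processing notes also name Picard and bedtools 2.24.0. Replicates were not pooled. MACS2 options, read filters and the handling of the transposase offset are not given in the sources used here. The deposited lists give, for each peak, its position, a score (10 times −log10 q), the fold enrichment at the summit (a ratio to local background), the −log10 p and −log10 q, and the summit offset. No read counts were used, so the authors' count-based comparison of groups was not repeated and depth is known only through a stand-in.

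Members and lists were chosen with earlier results of these data known. For each gene the peak with the highest −log10 p within 1000 bp of any of 146580 starts of protein-coding genes (GENCODE v44 mapped to GRCh37) was its lead peak. Percentiles were ranks within a list. Fragment pileups were recovered from fold enrichment and −log10 p as whole numbers within a relative tolerance of 0.0001, with a pseudocount of 1, for 100% of peaks. The 9583 genes with a peak in every list were fitted with limma 3.58.1 on normal-scored ranks (R 4.3.3; 4 residual degrees of freedom; Benjamini-Hochberg adjusted p under 0.05 over all genes). The fit was tested on simulated counts with known changes, and its power in these libraries was not measured. The study describes its sequencing replicates as biological, but the labels do not tie them to separate cultures, so p-values measure the spread between these libraries, which may be technical. Sequences were read with pyfaidx 0.9.0.4, and tables and plots were made with Python 3.11.15, numpy 2.4.6, pandas 2.3.3, scipy 1.17.1 and matplotlib 3.10.9.

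Members were named if they lacked a peak in a list, were among the 5 highest or 5 lowest by mean −log10 p percentile, the 3 most positive or negative in stiff minus soft at either day, the 3 widest or narrowest, or the 3 most or least variable. Other members are named where a small count is broken down or paralogs and outlying rankings are described, and were chosen after their values were seen. Alternatives changed the measure ranked, the starts used, the distance, the q threshold, the list length, the libraries fitted and the replicates. Values of some single members and list genes are not reported here, while counts and medians cover all of them.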

Additional observations from a re-analysis of the deposited data

Results flagged for a closer look

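Counts and medians over the ribosomal protein genes were examined in 8 groups of 4 libraries (4 soft and 4 stiff, for each of 4 measures) for a library far from the other 3. Chance flags about 1 in 20 groups of untied values from like libraries. Each group here held both days, and counts can tie, so that rate need not hold for these flags. Among the soft libraries, D2 soft replicate 1 had 61 members with a peak, and the gap to the next library was 0.846 of the range. This list is also the shortest (29789 peaks) and has the lowest depth stand-in (0.780 fragments per kb). Among the stiff libraries, D2 stiff replicate 1 had 72 members with a peak against 74 in each of the others, so that the gap was the whole range (1), a difference of RPL8 and RPL14 alone. The median relative width of the member peaks was 1.497 in D4 stiff replicate 1, and the gap was 0.978 of the range of the stiff libraries. The median width of all peaks, by which it is divided, was highest in this list (587 bp). The part of depth in these values was not tested.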

How the results depend on the processing

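No ribosomal protein gene was called under any setting. The canonical transcript start was chosen as an alternative after seeing the data. The members' median fold enrichment percentile, averaged over lists, was 70.6 and moved to 63.0 with a stricter q, 51.6 with equal list lengths and 55.2 when ranked among lead promoter peaks. The −log10 p percentile (71.7) moved to 65.35, 56.2 and 48.6, and the relative width (1.59) to 1.29 with equal lengths. Leaving out each replicate gave 69.99 to 71.65, 70.57 to 72.92 and 1.57 to 1.65 for these medians, and 60 to 70 members with a peak in every list (70 without D2 soft replicate 1).

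Genes called over the whole table varied more. With a stricter q, 1 gene was called in stiff minus soft at day 2, 1 in day 4 minus day 2 on soft gels and 1 for width at day 4. In stiff minus soft at day 4 the count was 1 with −log10 p ranked, 2 with canonical starts, 2 with coding starts, 1 with only the 4 libraries compared, and 2 within 500 bp. In day 4 minus day 2 on stiff gels it was 3, and 0, 1, 1, 8 and 0 under those settings, and 0 with equal lengths. Leaving out each replicate gave 0 to 53 at day 2, 0 to 2 at day 4, 0 to 36 over both days, 0 to 48 on soft gels, 0 to 6 on stiff gels, 0 to 1 for the interaction and 0 to 1 for width at day 2. The counts of 53, 36 and 48 all came without D2 soft replicate 2. The cause was not tested.

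The day 2 difference of RPL41 turned from 1.28 to −0.99 with summits within 1 kb and to −0.998 within 500 bp. These settings drop the distant D2 stiff replicate 2 peak. That of RPL36 at day 4 turned from −0.64 to 0.046 at the canonical start.

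With the replicate block, 2 genes were called in stiff minus soft at day 4, and the counts of the other contrasts did not change. Deviations of same-numbered libraries correlated between −0.0283 and 0.0635, so the numbers did not pair them. These numbers are those of the sample titles, and the peak names inside some lists carry other replicate numbers, so the block and the correlations hold for the titles only. Peak lists do not show promoters below the peak threshold, and D2 soft replicate 1, with the lowest depth stand-in, limits what can be said about absence there.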
